A study of Mus musculus with 1646 samples.

Results

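The genes described here are 34 interferon-response and MHC class I genes, measured in single cells of the mouse colon. They were taken by symbol from a given list and matched to the Ensembl identifiers of the count table, which holds 46517 genes, and all 34 were found. They comprise 8 genes of MHC class I and peptide loading, 13 antiviral effectors, 3 RNA sensors, 4 transcription factors and 6 interferon-inducible GTPases of the GBP and IRG families.

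Type I interferons and interferon-γ bind separate receptors and act through JAK kinases and STAT proteins. Complexes that hold STAT2 and IRF9 bind a promoter element called ISRE, an element called GAS serves the response to interferon-γ, and IRF1 extends the response. The induced genes block viral replication, sense foreign RNA, attack the vacuoles of intracellular pathogens and load peptides on MHC class I for display to cytotoxic T cells.

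The study sorted mesenchymal cells from organs of male mice aged 10 to 20 weeks and asked how fibroblasts and mural cells differ, and only its 1646 colon cells were used here. Each cell is 1 SmartSeq2 library, a full-length cDNA method without molecular identifiers. The mice belonged to 4 reporter lines in which a fluorescent protein is made where the promoter of the named gene is active. PdgfrbGFP gave 46.2% of the cells on 4 plates (colon_073s, colon_075s, colon_685s and colon_686s), Acta2GFP 34.4% on 2 plates (colon_513s and colon_682s), PdgfraGFP 13.8% on 2 plates (colon_1075s and colon_439s) and Cspg4dsRED 5.53% on 1 plate (colon_516s). The labels name no treatment, and all 4 lines carried a reporter, which in PdgfraGFP sits in the *Pdgfra* locus and in the other lines is a transgene. Cells positive for CD31, an endothelial protein, were excluded at the sort, and the tissue of Acta2GFP mice was also digested with elastase.

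The labels give each cell 1 of 8 clusters, which the authors had drawn from the same counts, so the tests below are not independent of the classes. Fibroblasts were those of the crypt base (cluster 7, 13.5% of all cells), base-middle (cluster 5, 25.8%), middle (cluster 1, 29.3%), middle-apex (cluster 6, 2.73%) and apex (cluster 2, 7.96%), 1307 cells in all. Mural cells, 20.6% of all cells, were pericytes (cluster 4, 8.63%), SMC (smooth muscle cells) of vessels (cluster 3, 8.57%, called vascular) and of the interstitium (cluster 8, 3.40%, called interstitial). Summed over a plate, 5 mural markers reached 4354 to 8263 counts per 500000 in mural cells and 94.6 to 304.5 in fibroblasts, and 4 fibroblast markers 3631 to 7065 in fibroblasts and 437.6 to 1265 in mural cells. In fibroblasts of clusters 1, 5 and 7, pericytes and vascular SMC, the sum of 8 immune cell markers was at most 44.7 on any plate. *Ptprc*, the gene of the pan-leukocyte protein CD45, averaged 0.117 counts per 500000 in pericytes and 0.0332 in fibroblasts of clusters 1, 5 and 7.

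Counts on genes per cell ranged from 47598 to 1494292, and plate medians from 113721 on colon_516s to 725044 on colon_1075s. Levels are counts scaled to 500000 per cell and averaged over the cells of a class, and they were compared within a gene only, since longer transcripts give more counts. No label ties a cell to a mouse, and cells were not taken as replicates. Tests compared 1 sum of counts per class and line, so the spread between lines includes strain, plate and dissociation. Plates of 1 line may share mice.

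RefSeq promoter windows (GRCm38.p6, 250 bases upstream of the start) matched 29 of the 34 members. Both strands were searched for 2 copies of GAAA separated by any 2 bases, the core of an ISRE, and for TTCNNNGAA, the core of a GAS element, whose letters do not overlap each other in the stretches printed here. The ISRE letters were in the windows of 13 of the 29 members, against 3.46% of 27025 genes, and the GAS letters in those of 7, against 8.13%. All 5 matched GTPases held the ISRE letters, as did 6 of 11 antiviral effectors, 1 of 4 transcription factors, 1 of 7 class I genes (*B2m*) and 0 of 2 RNA sensors. The stretches that end at the start site are shown for the GTPases, whose levels differed widely between plates, and for *B2m*, *Irf1* and *Isg15* for contrast. Capitals mark ISRE and GAS letters on either strand, and each is written 5′ to 3′ on the gene's strand.
Gbp2, chr3:142620593-142620662, plus strand: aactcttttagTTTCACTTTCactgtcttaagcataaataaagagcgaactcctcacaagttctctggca
Gbp3, chr3:142559974-142560043, plus strand: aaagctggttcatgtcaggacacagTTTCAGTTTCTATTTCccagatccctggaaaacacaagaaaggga
Gbp7, chr3:142530216-142530335, plus strand: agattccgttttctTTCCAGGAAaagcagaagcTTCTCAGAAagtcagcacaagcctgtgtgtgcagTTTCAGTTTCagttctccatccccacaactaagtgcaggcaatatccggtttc
Igtp, chr11:58199486-58199555, plus strand: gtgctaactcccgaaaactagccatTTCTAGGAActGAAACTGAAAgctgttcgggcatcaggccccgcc
Irgm1, chr11:48871421-48871490, minus strand: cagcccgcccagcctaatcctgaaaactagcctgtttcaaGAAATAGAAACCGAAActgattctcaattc
B2m, chr2:122147537-122147686, plus strand: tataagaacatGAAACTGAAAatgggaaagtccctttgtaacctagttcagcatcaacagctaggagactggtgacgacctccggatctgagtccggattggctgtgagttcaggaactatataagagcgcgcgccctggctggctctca
Irf1, chr11:53769914-53770013, plus strand: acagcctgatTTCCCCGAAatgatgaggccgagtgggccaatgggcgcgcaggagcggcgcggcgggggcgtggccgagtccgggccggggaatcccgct
Isg15, chr4:156200819-156200908, minus strand: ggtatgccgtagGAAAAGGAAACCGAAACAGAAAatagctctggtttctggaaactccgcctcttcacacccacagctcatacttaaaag
In these stretches, Gbp3 and Irgm1 held 2 overlapping ISRE matches and Isg15 held 3, while Gbp7 and Igtp held both elements. A match is a description of the letters and not evidence of binding.

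The members differed widely in how many cells had a count. *B2m*, the invariant light chain of MHC class I, had a count in 99.8% of all 1646 cells, *H2-D1* in 99.3%, *H2-K1* in 97.9% and *Tapbp* in 96.2%. *H2-K1* and *H2-D1* encode the classical heavy chains, and *Tapbp* encodes tapasin, which holds them at the peptide transporter. After thinning each cell to 50000 counts, which left out 11 shallower cells, the 4 shares were 99.6%, 97.2%, 94.3% and 90.3%, in that order. At the other end, *Ifi44* had a count in 7.90% of cells, *Oas1a*, a sensor of double-stranded RNA that makes oligoadenylates, in 9.84% and *Rsad2*, which encodes the antiviral enzyme viperin, in 14.8%. After thinning these 3 shares were 2.81%, 4.28% and 4.46%. The other class I genes lay between, with *Psmb9* in 45.3% of cells, *Tap1* in 50.9%, *Tap2* in 68.2% and *Psmb8* in 75.8%, and so did effectors such as *Ifi35* (64.6%), *Bst2* (70.8%) and *Ifi27* (74.9%). *Isg15*, a ubiquitin-like protein linked to other proteins, was at 18.2% and, thinned, at 8.81%.

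**Figure D1:**
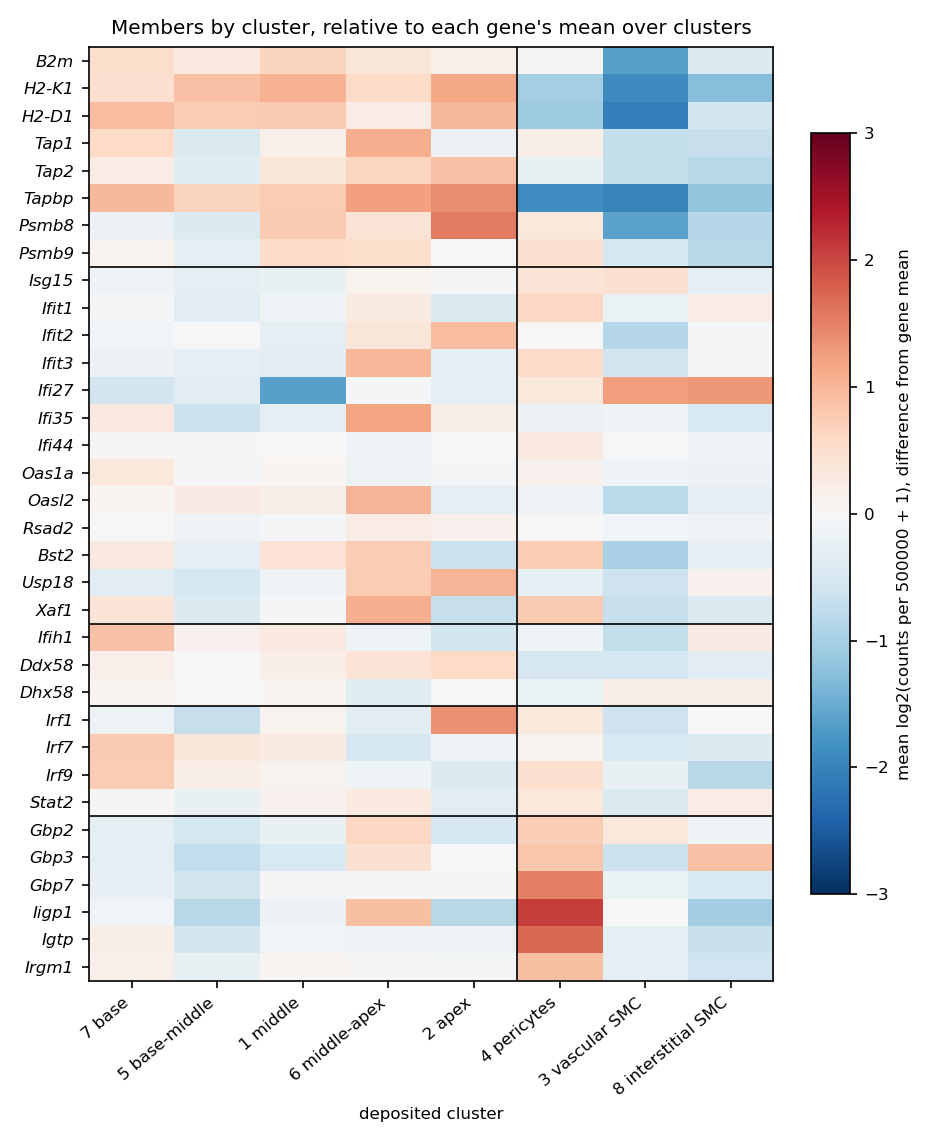
Colour shows the mean log2(counts per 500000 + 1) of each of the 34 members (vertical axis, grouped by role) in each of the 8 deposited clusters (horizontal axis), averaged over the reporter lines with at least 10 cells and given as the difference from the gene's mean over clusters. *H2-K1*, *H2-D1* and *Tapbp* are blue in the 3 mural clusters on the right and red in the 5 fibroblast clusters on the left, and the GTPases at the bottom are reddest in pericytes except *Gbp3*, which is slightly redder in interstitial SMC; lines are not spread evenly over clusters.

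The classical class I heavy chains were higher in fibroblasts than in mural cells as a class, with pericytes nearer to fibroblasts than SMC were. *H2-K1* (ENSMUSG00000061232, chromosome 17, 33996017 to 34000347, minus strand) had 335.6 counts per 500000 in fibroblasts of Acta2GFP, 382.7 in Cspg4dsRED, 472.3 in PdgfraGFP and 464.97 in PdgfrbGFP. In mural cells the *H2-K1* values were 138.9, 97.7 and 317.1 in Acta2GFP, Cspg4dsRED and PdgfrbGFP. Fibroblasts of every line thus lay above mural cells of every line, with means of 413.9 ± 66.1 (SD, n = 4 lines) and 184.6 ± 116.6 (SD, n = 3 lines). The log2 fold change of *H2-K1* was 1.35 (standard error 0.34), with a Benjamini-Hochberg adjusted p of 0.0467 in the quasi-likelihood test of edgeR.

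*H2-D1* (ENSMUSG00000073411, chromosome 17, 35262730 to 35267499, plus strand) showed the same order. Its fibroblast levels were 563, 658, 616 and 684.5 counts per 500000 in Acta2GFP, Cspg4dsRED, PdgfraGFP and PdgfrbGFP, and its mural levels were 272.7, 163.03 and 415.7 in the 3 lines with at least 10 mural cells. The groups did not overlap, with means of 630.6 ± 53.04 (SD, n = 4 lines) and 283.8 ± 126.7 (SD, n = 3 lines). How many of all genes were without such overlap was not counted, for this gene or for the others described in this way. The log2 fold change of *H2-D1* was 1.32 (standard error 0.29, adjusted p = 0.0257 by edgeR). Both genes belong to a family of near-identical copies, among which reads can be split, so their separate values are uncertain.

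*Tapbp* also did not overlap between fibroblasts (256.04, 301.4, 361.4 and 368.04) and mural cells (142.9, 88.7 and 236.9), but its log2 fold change of 1.01 (standard error 0.30) had an adjusted p of 0.085 by edgeR. *B2m* overlapped, with 526, 346.9, 569 and 492 in fibroblasts and 247.7, 208.97 and 530 in mural cells, and its log2 fold change was 0.68 (adjusted p = 0.238 by edgeR). The mural value of PdgfrbGFP was the one that reached the fibroblasts. *Tap1* and *Tap2*, the peptide transporter, had log2 fold changes of 0.23 and 0.21, and the immunoproteasome subunits *Psmb8* and *Psmb9* of 0.19 and -0.26.

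Of the 34 members tested between fibroblasts and mural cells, *H2-K1* and *H2-D1* were higher, against 3.21% of all 19173 genes tested, and 0 were lower, against 3.36%. By DESeq2 the counts were 3 and 1, against 8.23% and 7.17% of all genes. An unadjusted edgeR p under 0.05 was reached by 7 members and by 20.2% of all genes. The median log2 fold change was -0.41 over the members and -0.03 over all genes, and 12 members were positive. The members' median was -0.74 to 0.45 with a line left out, with 0.45 and 19 of 33 positive without PdgfrbGFP, and it was 0.03 by limma and 0.10 without plates colon_685s and colon_686s, so its sign rested on the setting. By role, the median was 0.46 for class I, -0.60 for antiviral effectors and -1.59 for the GTPases, none of which was positive. The 2 calls rested on few sums. With the reporter line as a block, since sums of 1 line shared strain and plates, the adjusted p from edgeR was 0.0734 for *H2-K1* and 0.0986 for *H2-D1*, and leaving out any 1 of the 4 lines ended both calls, with 0.0578 to 0.173 for *H2-K1* and 0.0513 to 0.104 for *H2-D1*. The dissociation genes, 16 genes known to respond to tissue dissociation, moved with this comparison: 3 were lower in fibroblasts by the test, 2 had a positive log2 fold change, and the median was -0.64. Their summed level was 2430 to 10384 counts per 500000 in fibroblasts and 4502 to 11621 in mural cells over plates, and its part in the class I result was not tested.

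Within plates the direction held: *H2-K1*, *H2-D1* and *Tapbp* were higher in fibroblasts on each of the 6 plates with at least 10 cells of both classes, as were 11.02% of the 15024 genes with a count in at least 5% of these cells. The class I level, the mean log2(counts per 500000 + 1) over its 8 genes, differed between fibroblasts and mural cells by 1.04 on colon_073s, 1.17 on colon_513s, 2.08 on colon_516s, 1.12 on colon_682s, 0.18 on colon_685s and 1.01 on colon_686s. By mean counts *Gbp7* and *Igtp* were lower in fibroblasts on all 6 plates, as were 8.17% of the 15024 genes. By the mean log2 level per cell, 5 members were higher and 0 lower on all 6, against 16.7% and 5.96%. The log2 fold changes of *Gbp7* and *Igtp* across lines were -1.45 and -1.49, and neither passed. Plates colon_685s and colon_686s held 67.6% of the pericytes but 6.12% of the fibroblasts. Without them, a setting chosen after seeing the data, the log2 fold change of *Gbp7* was -0.19, that of *Gbp2* moved from -1.70 to -0.48, *H2-K1* kept its call (adjusted p = 0.0303 by edgeR) and *H2-D1* did not (0.0547).

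**Figure D2:**
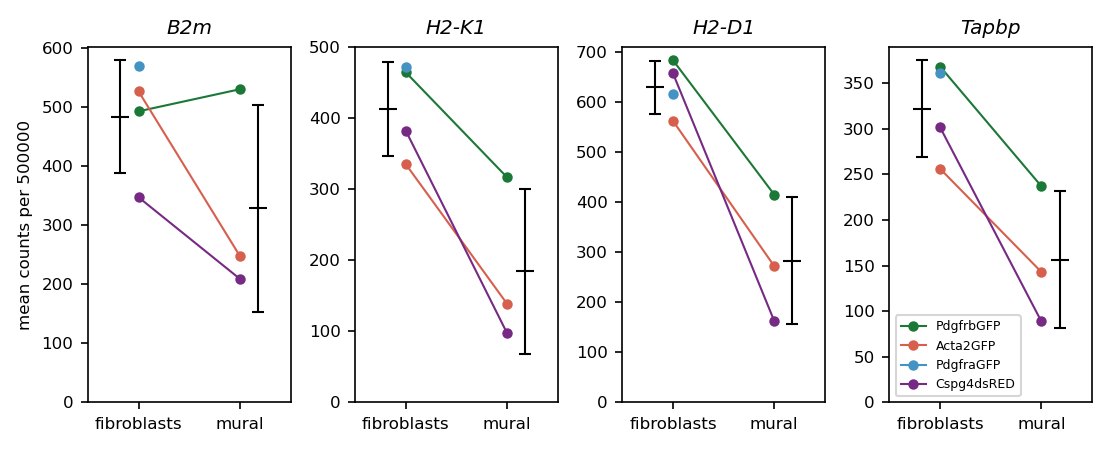
Points are mean counts per 500000 of *B2m*, *H2-K1*, *H2-D1* and *Tapbp* in fibroblasts and mural cells of each reporter line (colours, joined within a line; PdgfraGFP has no mural point), and bars are mean ± SD over lines. For *H2-K1* all fibroblast points are at or above 335.6 and all mural points at or below 317.1, while for *B2m* the mural point of PdgfrbGFP, at 530, lies among the fibroblasts.

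*Ifi27*, which encodes an interferon-inducible mitochondrial protein, was the antiviral effector nearest to a call in the mural direction. The level of *Ifi27* averaged 41.9 ± 14.1 counts per 500000 over the 4 fibroblast lines and 111.3 ± 47.8 over the 3 mural lines (SD over lines). Its lowest mural line, at 72.1, lay above its highest fibroblast line, at 57.6. The log2 fold change of *Ifi27* was -1.25 (standard error 0.39), with an adjusted p of 0.0922 by edgeR.

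Pericytes had higher values than vascular SMC for nearly the whole list, but no member passed the test between them. Of 34 members, 32 had a positive log2 fold change, the exceptions being *Rsad2* and *Dhx58*, and the median was 1.80 against -0.03 over all 16328 genes. Without PdgfrbGFP, the line of 2 of the 3 plates with at least 10 pericytes, 26 of 33 were positive and the median was 1.14, and by limma on the mean log2 level per cell 30 were positive and the median was 0.79. By role the medians were 1.39 for class I, 2.33 for antiviral effectors, 1.12 for RNA sensors, 1.53 for transcription factors and 2.26 for GTPases. With edgeR 0 members were higher, against 0.263% of all genes, and 0 were lower, against 0.404%. An unadjusted p under 0.05 was reached by 11 members, against 10.9% of all genes, and DESeq2 called 2 higher, against 2.69%. There were only 2 sums of pericytes, from Cspg4dsRED and PdgfrbGFP.

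The GTPases differed widely between these sums. *Iigp1* (ENSMUSG00000054072), an immunity-related GTPase that disrupts pathogen vacuoles, averaged 602 counts per 500000 in pericytes of plate colon_685s, 625 on colon_686s and 19.1 on colon_516s. In vascular SMC of those plates *Iigp1* averaged 224.6, 101.6 and 0.382, and in fibroblasts of clusters 1, 5 and 7 it averaged 63.6, 101.3 and 0. Pericytes were highest on every plate, and both PdgfrbGFP plates lay far above the Cspg4dsRED plate in all 3 classes. The log2 fold change of *Iigp1* from vascular SMC to pericytes was 2.68 with an adjusted p of 0.578 by edgeR.

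*Gbp2*, a guanylate-binding protein, followed the same plates, with 599, 570 and 15.5 in pericytes of colon_685s, colon_686s and colon_516s. In vascular SMC the *Gbp2* values were 228.8, 130.4 and 53.2, so its direction turned on colon_516s. *Igtp* reached 432.03 and 385.65 in pericytes of colon_685s and colon_686s and 74.8 on colon_516s, against 142.3, 103.98 and 0.837 in vascular SMC. *Irgm1*, a regulator of the other IRG proteins, had 246.8, 241.3 and 16.2 in pericytes and 122.3, 80.2 and 0.592 in vascular SMC. The GBP genes lie side by side on chromosome 3 and resemble each other, so counts may be split among them.

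Class I and effector genes of pericytes were likewise lowest on colon_516s. *B2m* averaged 848, 694 and 313.8 in pericytes of colon_685s, colon_686s and colon_516s and 301.98, 240.9 and 93.6 in vascular SMC, which gave a log2 fold change of 1.45 (adjusted p = 0.212 by edgeR). *Irf1*, the transcription factor that interferon-γ induces through GAS, had 366.7, 330.6 and 37.8 in pericytes and 114.4, 66.2 and 70.9 in vascular SMC. *Ifit3*, an effector that associates with the binders of viral RNA ends, had 64.8, 105.02 and 12.5 against 7.83, 7.01 and 0.167. Its counts cannot be fully told from those of its close copy. *Bst2*, which tethers budding virus, had 148.2, 190.3 and 60.8 against 65.7, 57.9 and 4.58.

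Counted by mean counts, 30, 32 and 32 of the 34 members were higher in pericytes on plates colon_516s, colon_685s and colon_686s, and 28 were above on all 3 plates, with 0 below on all 3, against 21.8% and 17.03% of the 14269 genes with a count in at least 5% of these cells. By the mean log2 level per cell 25 were above and 2 below on all 3, against 14.7% and 30.8%. By mean counts the 6 others were *Isg15*, *Ifi27*, *Rsad2*, *Dhx58*, *Irf1* and *Gbp2*. The level over all 34 members exceeded that of vascular SMC by 0.41, 0.85 and 1.29 on the log2 scale. These directions share libraries and depth within a plate and carry no test. Without Cspg4dsRED, 13 members were called higher, *Iigp1*, *Igtp*, *Gbp3*, *Gbp2*, *Oasl2* and *B2m* among them, against 1.16% of all genes, and without PdgfrbGFP 2 were, against 0.937%. Each of these fits leaves pericytes with 1 sum, which is assumed to vary like the others.

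Other values moved with these. On plates colon_516s, colon_685s and colon_686s, the summed level of 4 fibroblast markers was 733, 1967 and 1323 in pericytes and 112.1, 197.2 and 117.4 in vascular SMC, and all 4 markers had positive log2 fold changes, with 0 called by edgeR. The summed level of 6 endothelial markers was 22.7, 30.9 and 49.5 in pericytes and 15.8, 17.5 and 2.74 in vascular SMC, with all 6 positive (median log2 fold change 1.15) and 0 called by edgeR. The summed level of the 16 dissociation genes was 2533, 1938 and 2231 in pericytes and 14843, 8330 and 7299 in vascular SMC, and 5 of the 16 were lower in pericytes by the test. Their part in the result was not tested. Without a test, the pericyte value was also above that of the fibroblasts of clusters 1, 5 and 7 in 19 members on all 3 plates by mean counts, and in 13, with 4 below, by the mean log2 level per cell. Over the 15072 genes with a count in at least 5% of these cells, 20.5% were above by mean counts, and 10.5% above and 33.6% below by the log2 level.

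**Figure D3:**
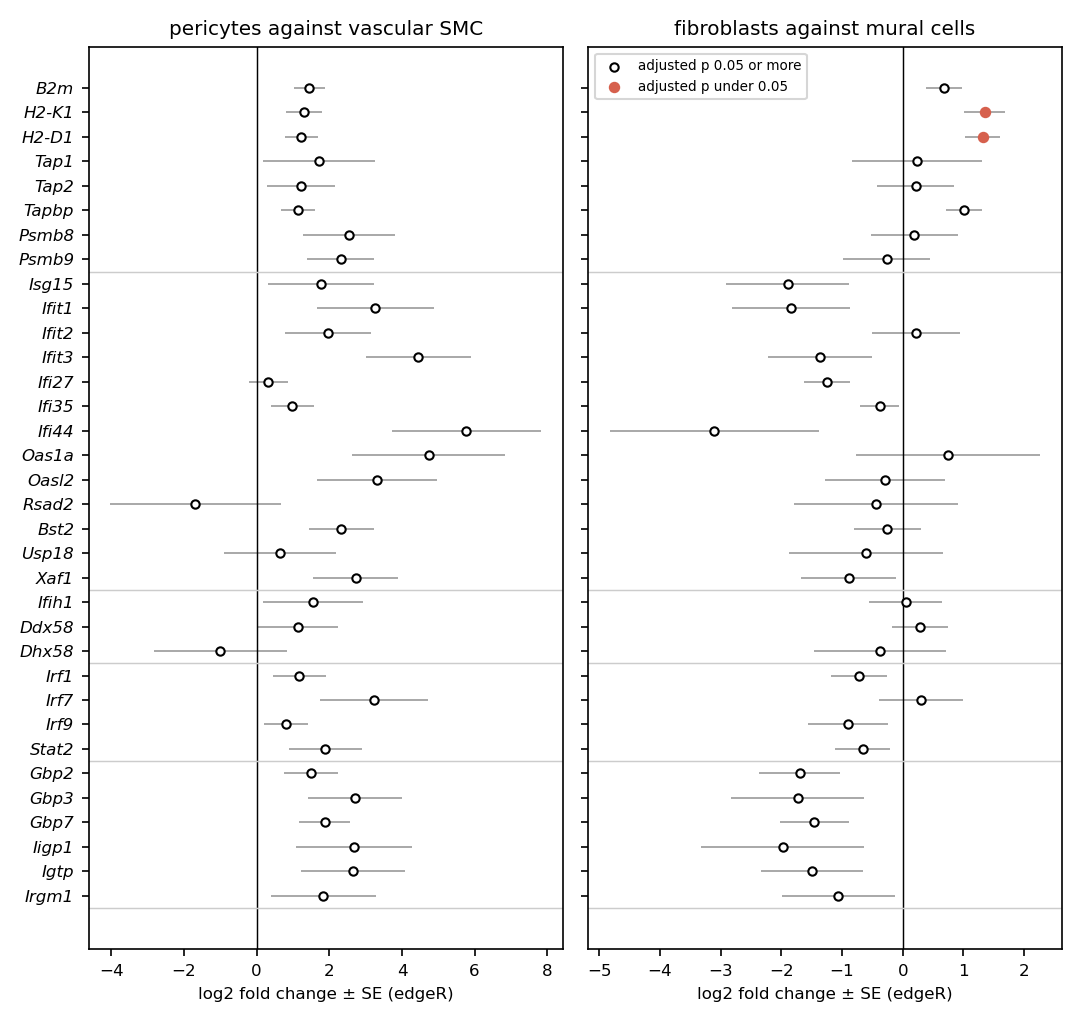
Points are log2 fold changes of the 34 members with standard errors from edgeR, on the left from vascular SMC to pericytes and on the right from mural cells to fibroblasts, grouped by role between the grey lines, and filled points have an adjusted p under 0.05. On the left 32 of 34 points are positive with none filled, and on the right only *H2-K1* and *H2-D1* are filled and the GTPases lie between -1.06 and -1.98. Each change is across reporter lines.

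Plates separated the GTPase genes in fibroblasts too. In fibroblasts of clusters 1, 5 and 7, the GTPase level (mean log2(counts per 500000 + 1) over the 6 genes) was 1.92 on colon_073s, 2.10 on colon_075s, 3.66 on colon_685s and 4.14 on colon_686s, all PdgfrbGFP. It was 3.41 on colon_1075s and 0.75 on colon_439s, both PdgfraGFP, 1.02 on colon_513s and 1.63 on colon_682s, both Acta2GFP, and 0.70 on colon_516s. The 3 highest plates thus came from 2 lines whose other plates were lower. Thinned to 50000 counts per cell, the same 3 plates stayed highest, at 3.33, 3.69 and 3.06 for colon_685s, colon_686s and colon_1075s, against 0.58 to 1.56 on the other plates. The extraction and sort dates are not given in the sources used here, so mouse, day and plate cannot be told apart.

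By gene, *Iigp1* averaged 177.7 counts per 500000 in fibroblasts of clusters 1, 5 and 7 on colon_1075s and at most 16.7 on the plates other than colon_1075s, colon_685s and colon_686s. *Gbp2* averaged 133.5 on colon_1075s, 151.9 on colon_685s and 117.5 on colon_686s and 14.3 to 39.9 elsewhere. The class I genes were highest on colon_1075s alone: *H2-K1* averaged 884 there against 287.4 on colon_439s, the other PdgfraGFP plate, and 279.7 to 550.2 on the rest. *B2m* averaged 791 on colon_1075s and 338.5 to 609 elsewhere. The class I level was 7.01 on colon_1075s, 4.38 on colon_439s and 4.71 to 6.005 on the others. On colon_1075s, the sum of 8 immune markers in these fibroblasts was 19.9 counts per 500000 with 5 of 8 listed at 0, and the plate had the highest median depth.

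**Figure D4:**
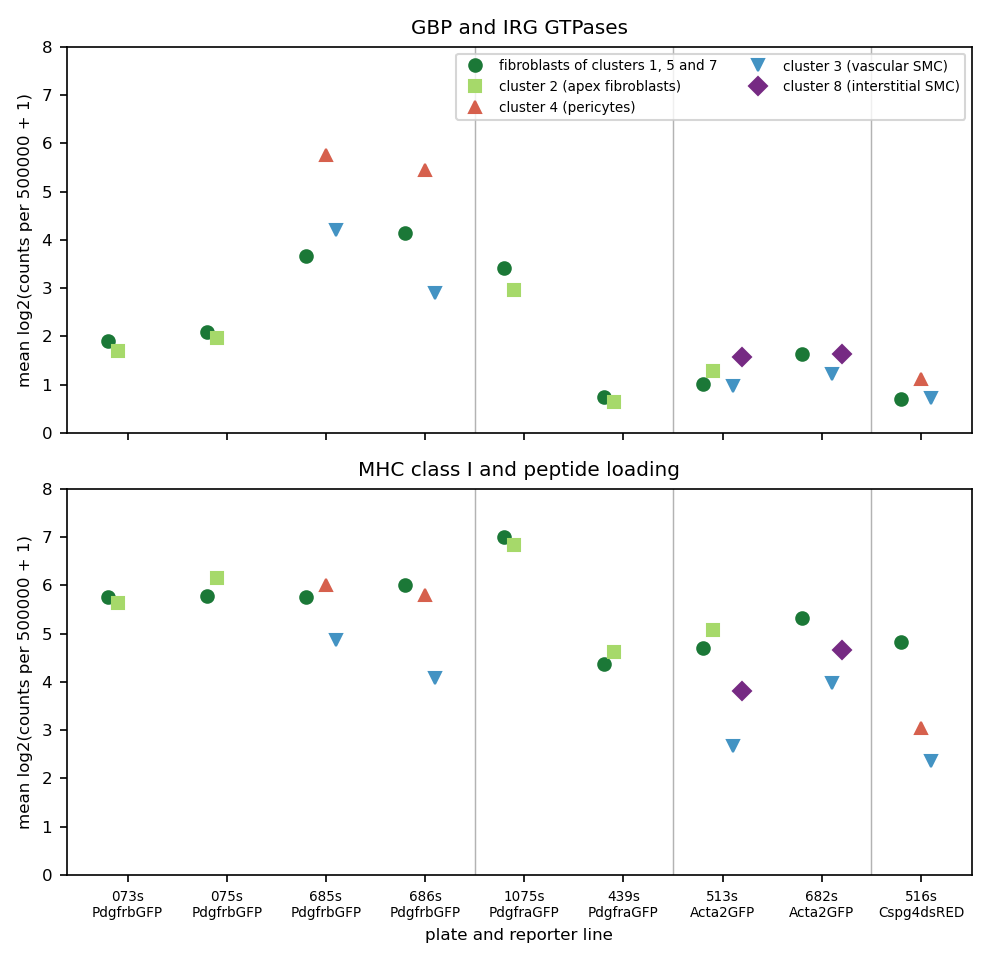
Plates are named without the prefix colon_. Points are the mean log2(counts per 500000 + 1) over the 6 GTPases (top) and the 8 class I genes (bottom) for each class with at least 10 cells, by plate and reporter line. Among fibroblasts of clusters 1, 5 and 7 the GTPase points stand at 3.66, 4.14 and 3.41 on colon_685s, colon_686s and colon_1075s and at 2.10 or below elsewhere, and the pericyte points reach 5.77 and 5.44 on colon_685s and colon_686s but 1.12 on colon_516s.

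Between lines, no member passed in fibroblasts of clusters 1, 5 and 7. With plates as samples, Acta2GFP against PdgfrbGFP gave 0 higher, against 0% of 20114 genes, and 0 lower, against 0%, by edgeR. An unadjusted p under 0.05 was reached by 708 genes and 5 members, and DESeq2 called 3 genes higher and 29 lower, with 0 members. The median log2 fold change of the members was -0.34, and it was -1.11 over the GTPases, none of which was positive. The members' median was -0.54 without plate colon_513s, -0.61 by limma and -0.55 in cluster 5 alone. The largest decrease among the GTPases was that of *Igtp*, at -2.44, with an unadjusted edgeR p of 0.0480 and an adjusted p of 1. PdgfraGFP against PdgfrbGFP gave 0 higher and 0 lower by edgeR, again against 0% and 0% of all genes, with 1363 genes and 0 members at an unadjusted p under 0.05, and DESeq2 called 0 members, 0.194% of genes higher and 1.30% lower. The median there was 0.06 with 18 members positive, -0.67 with 5 positive without plate colon_1075s, and 0.60 with 22 positive without colon_439s, and *Iigp1*, at 1.04, and *Tap1*, at 1.02, turned to -3.27 and -0.39 without plate colon_1075s.

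Among fibroblasts, the apex cluster differed in *Usp18*, which encodes a protease that removes ISG15 and dampens the type I interferon receptor. *Usp18* (ENSMUSG00000030107, chromosome 6, 121245906 to 121270917, plus strand) had 30.97, 52.9 and 45.6 counts per 500000 in apex fibroblasts of Acta2GFP, PdgfraGFP and PdgfrbGFP. In fibroblasts of clusters 1, 5 and 7 it had 7.16, 0.442, 3.22 and 8.77 in Acta2GFP, Cspg4dsRED, PdgfraGFP and PdgfrbGFP. The apex values lay above those of clusters 1, 5 and 7 in every line, with a log2 fold change of 3.56 and a standard error of 0.83, and the adjusted p from edgeR was 0.0311. *Usp18* was higher in the apex cluster on all 5 plates with at least 10 cells of both classes, with 77.7, 34.8, 57.3, 49.2 and 34.1 on colon_073s, colon_075s, colon_1075s, colon_439s and colon_513s against 10.9, 8.10, 3.18, 3.23 and 10.7. Middle-apex fibroblasts had 77.5 in Acta2GFP and 35.7 in PdgfraGFP. By mean counts 3 members were above and 5 below in the apex cluster on all 5 plates. Of the 15065 genes with a count in at least 5% of these cells, 7.00% were above and 17.6% below. By the mean log2 level per cell 3 members were above and 6 below, against 8.74% and 14.9%.

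*Usp18* was the 1 member of 33 tested that was higher in the apex cluster, against 3.5% of 15893 genes, and 0 were lower by edgeR, against 3.76%. DESeq2 called 2 higher and 2 lower, against 6.46% and 8.71% of all genes, and 5 members had an unadjusted edgeR p under 0.05, against 20.2% of all genes. The *Usp18* call was lost without Acta2GFP (adjusted p = 0.163), without PdgfraGFP (0.177) and without PdgfrbGFP (0.0899), all by edgeR, against all other fibroblasts (0.0726) and without cells with marker counts of another cell type (0.0606). The median log2 fold change of the members was 0.19, but it was -0.07 without Cspg4dsRED, -0.11 with the line as a block, -0.18 with plates as samples and -0.46 with a plate block as well. *Ifit1*, which binds viral RNA lacking the host cap mark, had 0.0526, 0.100 and 0.372 in the apex cluster and 9.998, 0.344, 4.31 and 7.02 in clusters 1, 5 and 7, with an adjusted p of 0.0956 by edgeR, and 0.029 without Cspg4dsRED. *Irf1* had 176.1, 99.5 and 144.8 in the apex cluster and 62.6, 36.6, 69.9 and 78.2 in the others, without overlap (log2 fold change 1.06, adjusted p = 0.0876 by edgeR). The dissociation genes moved with this comparison: 14 of 16 were higher in the apex cluster, with summed levels of 6886 to 19224 on its plates and 1789 to 9898 in clusters 1, 5 and 7. Their part in the *Usp18* result was not tested.

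Along the crypt, no member passed the test across lines between base fibroblasts of cluster 7 and middle fibroblasts of cluster 1. With edgeR 0 of 34 were higher, against 1.24% of 15862 genes, and 0 were lower, against 1.25%, with 1 member, and 12.5% of all genes, at an unadjusted p under 0.05 and 0 members called by DESeq2. The median log2 fold change was -0.02 and 15 members were positive, with -0.22 and 11 without Acta2GFP, -0.18 and 15 without PdgfrbGFP, 0.07 and 19 without PdgfraGFP, and -0.30 and 12 with plates as samples. By mean counts *Ifi27* was higher at the base on all 5 plates compared (log2 fold change across lines 1.18, adjusted p = 0.264 by edgeR), while *H2-K1*, *Psmb8* and *Stat2* were lower there on all 5. Of the 15009 genes with a count in at least 5% of these cells, 7.84% were higher and 12.5% lower on all 5. By the mean log2 level per cell 1 member was higher and 2 lower on all 5, against 16.1% and 7.82%. Across lines *Psmb8* had a log2 fold change of -0.87 (adjusted p = 0.693 by edgeR). With plates as samples, *Psmb8* was lower at the base (-2.21, adjusted p = 0.00335 by edgeR), and with a plate block as well *Psmb8* was lower (-1.95, adjusted p = 0.00735) and *Ifi27* higher (1.90, adjusted p = 0.00743). Plates of 1 line may share mice. With line sums and the line as a block, 0 members were higher and 0 lower, against 0.693% and 0.567% of all genes. Of all genes, 3.00% were lower by plates, and 4.06% lower and 2.82% higher with the plate block. Thus 1 of 33 members was near or below the share of all genes. Over plates, the scaled sum of 6 endothelial markers was 141.5 to 254.2 at the base and 2.81 to 49.9 in the middle. Across lines 3 of these 6 were positive, and *Tek* was called higher (4.34, adjusted p = 0.0209 by edgeR). All 5 mural markers were negative and 14 of 16 dissociation genes positive, with 0 called. The part of these markers in the values above was not tested.

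Of the 56 interstitial SMC, 52 came from Acta2GFP, the 1 line with at least 10 of them, so they gave 1 sum. Against vascular SMC, edgeR called 0 members higher, against 0.398% of 16328 genes, and 0 lower, against 0.643%, with 1 member, and 9.30% of all genes, at an unadjusted p under 0.05 and 0 members called by DESeq2. The single sum is assumed to vary like the other groups, so these counts say little. The median log2 fold change was 0.64 over the members and -0.31 over all genes, and the members' median was 0.34 without Cspg4dsRED, 1.19 without PdgfrbGFP and 1.05 with the line as a block. All 4 fibroblast markers had positive log2 fold changes (median 1.91), with 0 called by edgeR, and their part in these values was not tested. Within the 2 Acta2GFP plates no test was made. By mean counts 14 members were above vascular SMC on both plates, *Isg15* was below on both and 19 were mixed, against 27.6% of 14450 genes above and 24.9% below. *Oasl2*, an oligoadenylate synthetase-like gene, had 48.7 and 33.9 in interstitial SMC of colon_513s and colon_682s against 1.21 and 1.51 in vascular SMC, and *Usp18* had 31.8 and 22 against 0 and 9.85. *Iigp1* had 6.48 and 15.6 against 9.07 and 1.58, and its log2 fold change of -1.85 became 3.05 with the line as a block.

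The roles moved together to unequal degrees. Over 38 sets of cells of 1 cluster on 1 plate, Pearson's r was 0.86 between the levels of GTPases and antiviral effectors, 0.70 between GTPases and transcription factors, 0.59 between GTPases and class I and -0.11 between GTPases and RNA sensors. The sets share plates, depth and libraries, so r describes them and has no test. The RNA sensors *Ifih1*, *Ddx58* and *Dhx58* had a summary level of 1.001 to 1.92 in fibroblasts of clusters 1, 5 and 7 on all 9 plates, a narrower range than the 0.70 to 4.14 of the GTPases.

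Of 110 further genes of interferon signalling and antigen presentation, all but 2 were in the table. The ligands *Ifnb1*, *Ifng*, *Ifne*, *Ifnl2* and *Ifnl3* were listed at 0 counts in all 8 clusters, in 1646 cells. Between fibroblasts and mural cells 99 of these were tested, of which 3 were higher in fibroblasts and 1 lower (all genes 3.21% and 3.36%): *Ifngr1*, the ligand-binding chain of the interferon-γ receptor (log2 fold change 1.57), *Lgals3bp* (1.47) and *Pdia3*, of the peptide-loading complex (1.05), and *Ifngr2*, the second receptor chain (-1.70). In the apex cluster 4 genes were higher and 3 lower of 91 tested, near the shares over all genes of 3.5% and 3.76%, and those with the largest changes were *Tgtp1* (4.92), *Cxcl10* (4.38) and *H2-Ab1* (3.49) among the higher and *Ifi204* (-5.24), *Ifi205* (-4.65) and *Ifi27l2a* (-2.06) among the lower. *H2-Ab1* encodes an MHC class II chain and *Cxcl10* a chemokine for T cells.

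At the crypt base, *Ifi204* was higher (4.02) and *Ifitm1* lower (-5.11) than in the middle, of 91 tested (all genes 1.24% higher and 1.25% lower). In pericytes *Ly6e* (3.88) and *Ifitm1* (3.18) were higher than in vascular SMC, of 96 tested (all genes 0.263% higher), with a median log2 fold change of 1.98 and 91 positive. No gene of this list passed between interstitial and vascular SMC or between lines by edgeR, with 8 of 96, 8 of 99 and 9 of 99 at an unadjusted p under 0.05 for interstitial SMC, Acta2GFP and PdgfraGFP, against 9.30%, 3.52% and 6.78% of all genes. *Cxcl10* in pericytes was singled out after its values were seen. It averaged 304.2, 201.5 and 0.390 counts per 500000 in pericytes of colon_685s, colon_686s and colon_516s and at most 3.96 in vascular SMC on any plate.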

How the data were processed

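SmartSeq2 libraries of 1646 colon cells were used, 1 cell per library. The authors aligned reads to GRCm38 with TopHat2 and counted them per gene with featureCounts, and the deposited values are raw counts in 46609 lines, of which 92 are ERCC spike-ins (1.36% of counts, left out). The authors had removed cells lacking *Pdgfra* and *Pdgfrb* and cells with endothelial or immune signatures. Whether counting used strand is not given in the sources used here. Reads are not independent molecules, and depth per cell was 47598 to 1494292 gene counts.

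Levels are counts per 500000, or log2 of them with a pseudocount of 1. Counts were summed over at least 10 cells per class and line (per plate for comparisons of lines) and tested with edgeR 4.0.16 (quasi-likelihood, TMM, filterByExpr, Benjamini-Hochberg, threshold 0.05, two-sided) in R 4.3.3, over all genes that passed the filter. Alternatives were DESeq2 1.42.0, limma 3.58.1 on mean log2 values, no filter, each line or plate left out, the line as a block, plates as samples, at least 3 cells per sum, and removal of 498 cells with marker counts of another type. The study's own test, with cells as replicates, was not followed. Sums of 1 line share strain and plates, and their deviations from the class means correlated at 0.152 to 0.174 for fibroblasts and mural cells and 0.132 to 0.170 for base and middle, all above 0.1, so these were also fitted as pairs. The labels do not say that both classes came from the same mice. On simulated data DESeq2 made more false calls than edgeR in every comparison, so its calls are given only as an alternative. However, edgeR missed most of the 200 genes simulated with a log2 change of 2. It recovered 1 for fibroblasts and mural cells, 19 for the apex, 34 for base and middle and 9 for pericytes. For Acta2GFP and PdgfraGFP it recovered 25 and 20. A change of that size could thus go uncalled. At 4, the same comparisons recovered 73 to 114 of 200. The members and gene lists were chosen with earlier results of these data known. All members are named, and of the other pathway genes at most the 6 largest changes that passed in a comparison.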

Additional observations from a re-analysis of the deposited data

Results flagged for a closer look

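Among the 4 PdgfrbGFP plates, the MHC class I level of fibroblasts of clusters 1, 5 and 7 (mean log2(counts per 500000 + 1) over 8 genes) stood apart on colon_686s, at 6.005, from the nearest plate at 5.78. Chance sets a sample apart in about 1 in 20 groups, and 50 groups were examined.

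In 6 of 60 pairs of lines, every plate of one line moved one way and every plate of the other the opposite way, and none of these differences was tested. The GTPase level of apex fibroblasts relative to clusters 1, 5 and 7 was 0.27 in Acta2GFP, -0.28 in PdgfraGFP and -0.18 in PdgfrbGFP, so Acta2GFP differed from these by 0.55 and 0.44. From middle to base, the GTPase level differed by 0.11 in Acta2GFP and -0.40 in PdgfraGFP, a gap of 0.51. The antiviral effector level differed from middle to base by 0.35 in Acta2GFP, 0.29 in PdgfraGFP and -0.13 in PdgfrbGFP, with gaps of 0.48 and 0.42 to PdgfrbGFP. The transcription factor level differed by -0.19 in Acta2GFP and 0.32 in PdgfraGFP, a gap of -0.50. Each pair rests on 3 or 4 plates, and with so few plates opposite directions arise readily by chance.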

How the results depend on the processing

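Under the alternatives, 40 values of comparison-wide results moved and most did not. For single genes, 46 values gained a call, 18 lost one, 11 changed sign and the rest kept direction and side of the threshold. The cause was not tested except where fewer samples or genes were used.

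Fibroblasts against mural cells gave 2 higher and 0 lower members. Higher members numbered 3 by DESeq2, by limma and with plates as samples, 0 with each line left out, 0 with the line as a block, and 1 without cells with other markers, with plates as samples and a plate block, or without colon_685s and colon_686s. Of all genes, 8.23% were higher by DESeq2, 3.92% by limma, 8.19% with plates as samples and 6.39% with a plate block, so 3 of 34 by DESeq2 and by plates was near the share of all genes. DESeq2, plates as samples, and plates with a plate block each gave 1 lower, against 7.17%, 7.94% and 4.55% of all genes. For apex fibroblasts, 1 higher became 2 by DESeq2 and by plates, 0 without cells with other markers, 0 against all other fibroblasts and 0 to 1 with a line left out. Lower members numbered 2 by DESeq2, 1 by plates with or without a plate block, and 0 to 1 with a line left out. Of all genes, 6.46% were higher and 8.71% lower by DESeq2, and 5.56% and 6.54% by plates. A plate block gave 3.40% higher and 4.23% lower. With a line left out, 0.903% to 3.65% of genes were higher and 0.276% to 3.95% lower. Sums of 1 line shared less there (correlations 0.0856 to 0.116), and *Usp18* kept its call with the line as a block (adjusted p = 0.0304 by edgeR). Base against middle gave 1 higher with a plate block and 1 lower by plates with or without it, against 2.82% of all genes higher with the block and 3.00% and 4.06% lower without and with it. The line as a block gave 0 higher and 0 lower.

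Pericytes against vascular SMC gave 2 higher by DESeq2, by plates with or without a plate block and without colon_685s and colon_686s, 9 without the filter, and 0 to 13 with a line left out. The line block left 0. Of all genes, 1.07% were higher by plates, 0.467% with a plate block, 0.937% without those plates and 0.904% without the filter. Interstitial SMC gave 3 higher with a plate block, against 0.426% of all genes. The other settings with calls there held 1 sum of these cells, so their counts say little and are left out.

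From vascular SMC to pericytes, *Gbp2* ranged from -0.94 to 2.26 with a line left out and was -0.94 without colon_685s and colon_686s. From vascular SMC to interstitial SMC, *Gbp2* was 1.06 with at least 3 cells per sum, and *Iigp1* ranged from -2.41 to 3.59 with a line left out and was 3.05 with the line block, 2.62 with a plate block and 3.59 without colon_685s and colon_686s. PdgfraGFP against PdgfrbGFP, *Tap1* ranged from -0.39 to 1.70 and *Iigp1* from -3.27 to 1.98 with a plate left out, and *Iigp1* was -0.032 by limma and -2.78 in cluster 5 alone. The mean member level of Acta2GFP minus PdgfrbGFP fibroblasts moved from -0.75 to -0.33 with a pseudocount of 10. Over all genes, fibroblasts against mural cells gave 3.21% higher and 3.36% lower by edgeR and 8.23% and 7.17% by DESeq2, and pericytes 0.263% and 0.404% against 2.69% and 3.23%. The plate block and the omission of colon_685s and colon_686s were chosen after seeing the data. Each class had few sums, and depth per cell was not varied in the tests.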
